A study of Mus musculus with 4 samples.

Results

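The genes described here are 8 genes of mineralization: the phosphatases Alpl and Phospho1, the pyrophosphate-making enzyme Enpp1, the phosphate transporters Slc20a1 and Slc20a2, the sphingomyelinase Smpd3, the peptidase Phex and the matrix inhibitor Mgp. They were found by symbol among the 32286 genes listed for 4 single-cell libraries of mouse spine, and all 8 had at least 1 UMI (unique molecular identifier, the tag that counts 1 captured transcript). The cells were tdTom+ cells sorted from vertebrae T11 to L2 that showed tdTom signal, with CD11b+, CD31+, CD45+ and dead cells discarded, and were run on the Chromium 3′ v3.1 chemistry. In these mice Cre is made from the Prss56 locus, active in boundary cap cells of the developing nerve roots, and marks those cells and their descendants with tdTom. The control libraries came from Prss56Cre/+;R26tdTom/tdTom;Nf1+/+ mice and the mutant libraries from Prss56Cre/Cre;R26tdTom/tdTom;Nf1fl/fl mice, at 3 months and at 12 to 16 months of age. Nf1 genotype and the number of Prss56Cre copies therefore changed together and cannot be told apart. Sex markers changed with the label at 3 months as well, where Y-linked genes had 210 UMIs in the control and 5 in the mutant library. For every gene compared, sex and label cannot be told apart at that age. At 12 to 16 months both libraries held Y-linked UMIs (122 and 216), though not in every group of cells, as given below. The number of animals in each library is not given in the sources used here. There was 1 library per condition. No test between conditions was possible, and the ranges given in brackets below are 95% intervals for counting error only.

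Mineral forms where free phosphate is high and pyrophosphate, which blocks crystal growth, is low. Alpl (tissue-nonspecific alkaline phosphatase) splits pyrophosphate into phosphate outside the cell, Enpp1 makes pyrophosphate from ATP, and Phospho1 releases phosphate inside matrix vesicles from phosphocholine, which Smpd3 helps to supply by cleaving sphingomyelin. Slc20a1 and Slc20a2 carry phosphate into cells, Phex is a membrane peptidase of osteoblasts and osteocytes whose loss causes X-linked hypophosphatemia, and Mgp (matrix Gla protein) keeps cartilage and arteries from calcifying. In the spine, hypertrophic chondrocytes, osteoblasts and osteocytes are the cells known for making mineral, while resting and proliferating cartilage stays free of it.

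The 8 genes lie on 7 chromosomes of the mm10 (GRCm38) genome: Alpl at chr4:137741733-137796384, Enpp1 at chr10:24637914-24712159, Phospho1 at chr11:95824499-95832140, Slc20a1 at chr2:129198764-129211616, Slc20a2 and Smpd3 on chromosome 8 at chr8:22476788-22569612 and chr8:106252548-106337988, Phex at chrX:157162075-157415312 and Mgp at chr6:136872435-136875823. RefSeq promoter windows of the same build were at hand for 5 of the 8 genes. The 250 bases before the start are shown for 4 of them, because Alpl and Phex were high in the same gates of cells while Enpp1 and Slc20a1 were not. They are written 5′ to 3′ on the gene's own strand, from chr4:137796385-137796634 (minus strand), chrX:157415287-157415536 (minus), chr10:24712160-24712409 (minus) and chr2:129198523-129198772 (plus), with the letters TGTGGT or their reverse complement ACCACA, the core of the RUNX motif, in capitals.
Alpl: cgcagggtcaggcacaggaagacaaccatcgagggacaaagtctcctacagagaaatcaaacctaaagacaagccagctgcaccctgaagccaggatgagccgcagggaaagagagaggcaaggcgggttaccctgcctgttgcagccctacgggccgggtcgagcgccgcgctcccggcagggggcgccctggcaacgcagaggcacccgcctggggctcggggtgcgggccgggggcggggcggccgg
Phex: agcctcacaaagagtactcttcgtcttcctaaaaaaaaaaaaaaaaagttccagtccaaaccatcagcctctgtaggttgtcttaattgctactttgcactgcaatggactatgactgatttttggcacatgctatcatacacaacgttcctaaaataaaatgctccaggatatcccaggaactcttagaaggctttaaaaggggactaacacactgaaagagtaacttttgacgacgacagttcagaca
Enpp1: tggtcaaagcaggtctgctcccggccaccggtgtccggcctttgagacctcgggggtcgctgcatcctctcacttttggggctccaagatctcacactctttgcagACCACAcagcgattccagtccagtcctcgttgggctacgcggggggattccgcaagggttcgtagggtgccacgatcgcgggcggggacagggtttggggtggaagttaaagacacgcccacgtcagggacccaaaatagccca
Slc20a1: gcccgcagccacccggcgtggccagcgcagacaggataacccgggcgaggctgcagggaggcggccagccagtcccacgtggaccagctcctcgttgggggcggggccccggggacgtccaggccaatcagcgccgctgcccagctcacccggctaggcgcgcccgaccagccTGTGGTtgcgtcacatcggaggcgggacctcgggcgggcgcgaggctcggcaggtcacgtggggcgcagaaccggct
The RUNX letters occurred once before Enpp1, 144 bases from the start, and once before Slc20a1, 77 bases from it, and not in these windows of Alpl and Phex. Of 32817 such windows of all genes, 14.0% held them on either strand. The Alpl window shown was rich in G and C, at 68.4%, and held 2 GC boxes (GGGCGG or CCGCCC, found in 32.7% of windows). Alpl and Slc20a1 each had a second listed start, whose windows are not shown and held no RUNX letters. That of Alpl had 56% G and C and no GC box. The Phex window had 39.2% G and C and no GC box. These matches describe letters and are not known binding sites.

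Of 2172 barcodes in the files, 1757 passed the limits (more than 750 UMIs, more than 500 genes, less than 7% mitochondrial UMIs): 717 and 484 in the control and mutant libraries at 3 months, and 135 and 421 at 12 to 16 months, with a median of 8189 to 12644 UMIs per cell. No barcode was shared between any pair of libraries. Cells were placed in 3 gates. Hypertrophic cells held Sox9 and at least 2 UMIs of Ihh, Panx3 and Prkg2 together, other cartilage cells held Sox9 and at least 3 UMIs of Acan, and bone/stroma cells held Runx2 and at most 2 UMIs of Acan. In the order control and mutant at 3 months, then control and mutant at 12 to 16 months, which is kept for every set of 4 values below, there were 38, 136, 15 and 56 hypertrophic cells, 525, 241, 74 and 202 other cartilage cells and 44, 39, 27 and 83 bone/stroma cells. Each gene's UMIs were scaled to a total of 1000000 in its gate (CPM). Col10a1, the defining collagen of hypertrophic cells, bore out the label in part of the cells of 3 libraries (2993, 639.9 and 2215 CPM). A Col10a1 UMI was found in 9 of 38, 22 of 136 and 12 of 56 cells there. The 15 hypertrophic cells of the control library at 12 to 16 months had none. For cells without Col10a1 the label rests on the gate's own genes. Of the 39 bone/stroma cells of the mutant library at 3 months, 23 held Ptprc, the CD45 transcript. Those 23 cells had no UMI of Col1a1, Bglap or Ibsp, and 15 of them held the myeloid gene Lyz2. The summed level of the 4 blood markers in bone/stroma was 12.7, 911, 107 and 142 CPM. Bone/stroma values are therefore given below without cells that hold Ptprc (43, 16, 25 and 76 cells left) or with both readings, unless stated otherwise. Nf1 itself was at 131, 149.7, 147 and 125 CPM. It was not lower under the mutant label at 3 months, and 3′ tags need not fall in the deleted part of a floxed gene, so the libraries are named here by their labels alone.

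Hypertrophic cells carried the high levels of Alpl, Smpd3, Phex and Mgp among cartilage cells. Of the 7 genes with enough UMIs to compare (at least 20 over both gates, which left out Phospho1), 6, 5, 4 and 4 were at least 2-fold higher in hypertrophic than in other cartilage cells, where 11.3%, 12%, 15.3% and 16.1% of all genes compared were. Alpl, Smpd3, Phex and Mgp were the 4 that passed in every library. The median log2 ratio of the 7 genes was 4.26, 3.20, 2.11 and 3.29, against 0.04, 0.07, 0.07 and 0.18 over all genes. At least 2-fold lower were 0, 0, 1 and 0 of the 7 genes, against 17.8%, 11.3%, 16.2% and 11.2% of all genes. In the control library at 12 to 16 months the count of 4 fell to 2 when the 1 cell with most UMIs of each gene was left out. Smpd3 and Mgp were left. Alpl and Phex each had most of their hypertrophic UMIs there in 1 cell, as given below.

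**Figure D1:**
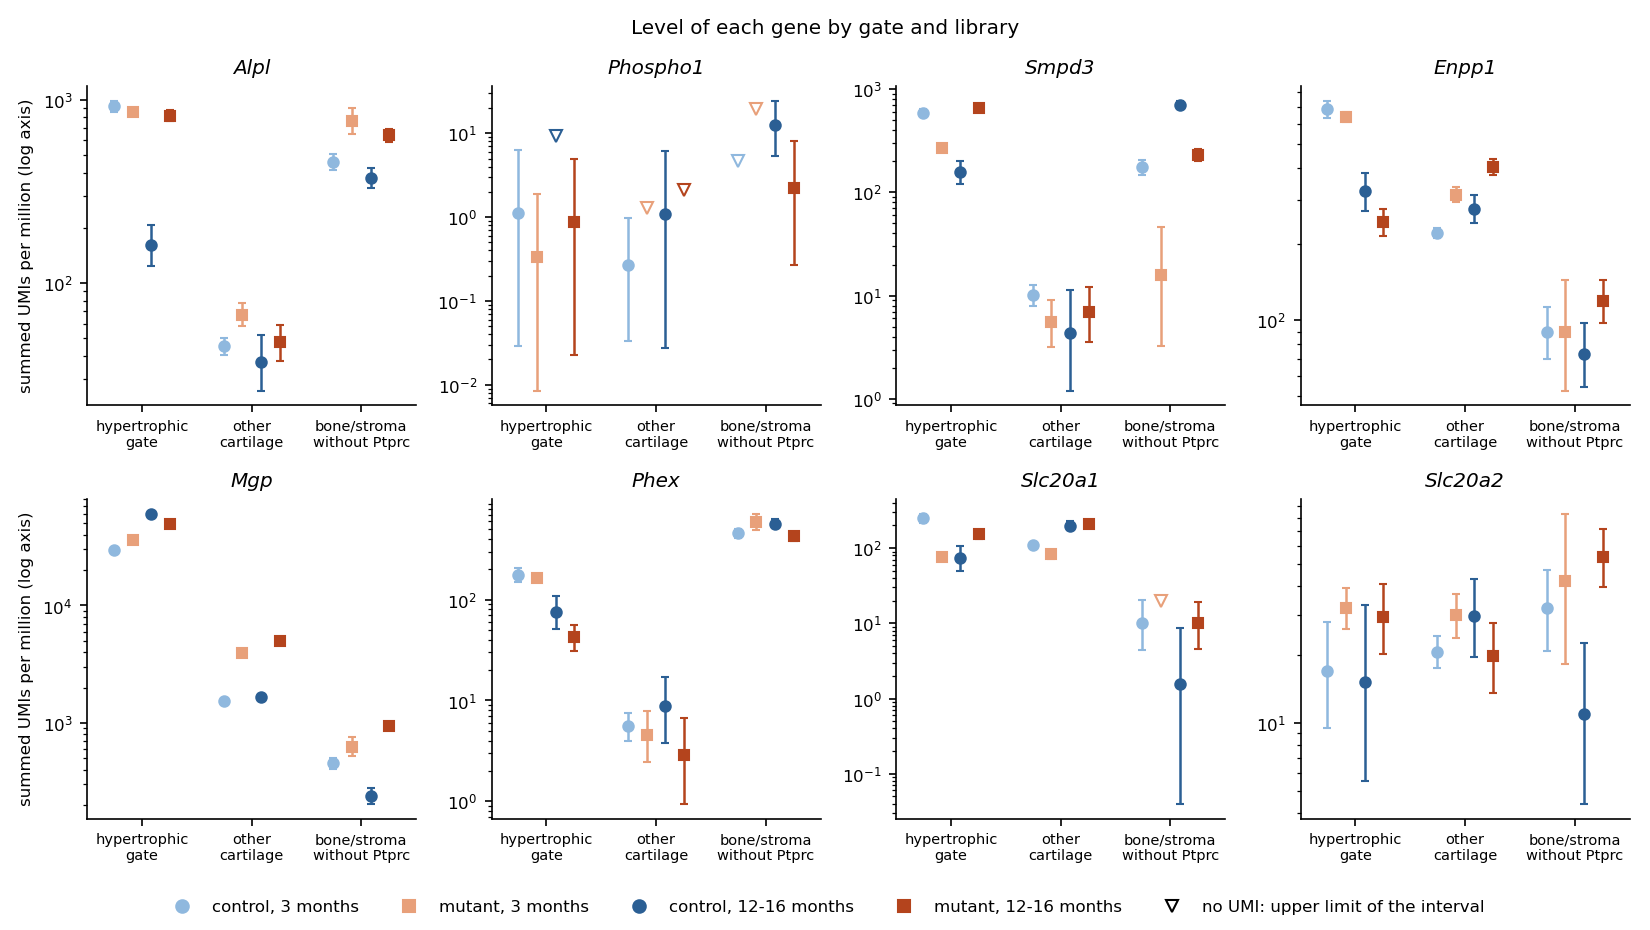
Level of each of the 8 genes in CPM (log axis) in hypertrophic, other cartilage and bone/stroma cells (cells with Ptprc left out), 1 point per library, with 95% Poisson intervals as bars and open triangles at the upper limit where no UMI was found. Alpl, Smpd3 and Phex sit low in other cartilage and higher on both sides of it, Enpp1, Slc20a1 and Mgp are lowest in bone/stroma, and Phospho1 is near the limit of detection in every gate.

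Alpl was at 924, 853, 162 and 819 CPM in hypertrophic cells, 45.3, 67.2, 37.3 and 47.4 CPM in other cartilage cells and 458, 767, 374 and 640.0 CPM in bone/stroma cells without Ptprc. The other cartilage values were the lowest of each library and did not overlap with those of the other gates. The ratio of hypertrophic to other cartilage was 20.4 (18 to 23.3), 12.7 (10.9 to 14.8), 4.34 (2.82 to 6.78) and 17.3 (13.8 to 22). The low value of the control library at 12 to 16 months came from 15 cells, of which 1 held 73.4% of the Alpl UMIs. Bone/stroma without Ptprc was higher than other cartilage by 10.1 (8.69 to 11.8), 11.4 (9.13 to 14.2), 10.0 (6.98 to 14.8) and 13.5 (10.7 to 17.2). With the Ptprc cells kept, bone/stroma of the mutant library at 3 months had 169 CPM, and the 23 Ptprc cells held 1 of its Alpl UMIs.

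Alpl was also found in a larger share of hypertrophic cells. It was detected in 57.9%, 50%, 26.7% and 55.4% of hypertrophic cells and in 11.6%, 15.8%, 16.2% and 11.9% of other cartilage cells. Hypertrophic cells were deeper (median 21115, 20298.5, 27015 and 19801.5 UMIs, against 12359, 10610, 9848 and 7193.5), so all cells were also thinned to 3000 UMIs, with shallower cells left out. The shares were then 45.9%, 41.2%, 14.3% and 32.1% in hypertrophic cells, 5.8%, 7.92%, 8.96% and 8.02% in other cartilage cells and 58.5%, 66.7%, 65.2% and 45.7% in bone/stroma cells without Ptprc. The control library at 12 to 16 months had the lowest share in the hypertrophic gate, from 14 cells. In Ptprc cells with no Sox9, which stand for free RNA, 2.44% and 4.17% of cells in the mutant libraries at 3 and at 12 to 16 months held an Alpl UMI at that depth. The other cartilage shares were above these in value. At 6000 UMIs these Ptprc cells held Alpl in 0% (0% to 10.3%) and 0% (0% to 19.5%) of cells. Other cartilage of the same libraries had 12.4% (8.32% to 17.5%) and 12.7% (7.57% to 19.5%), so the intervals overlap. The hypertrophic shares at 3000 UMIs were above the other cartilage shares. In the control library at 12 to 16 months, though, the 14 hypertrophic cells leave an interval of 1.78% to 42.8%.

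**Figure D2:**
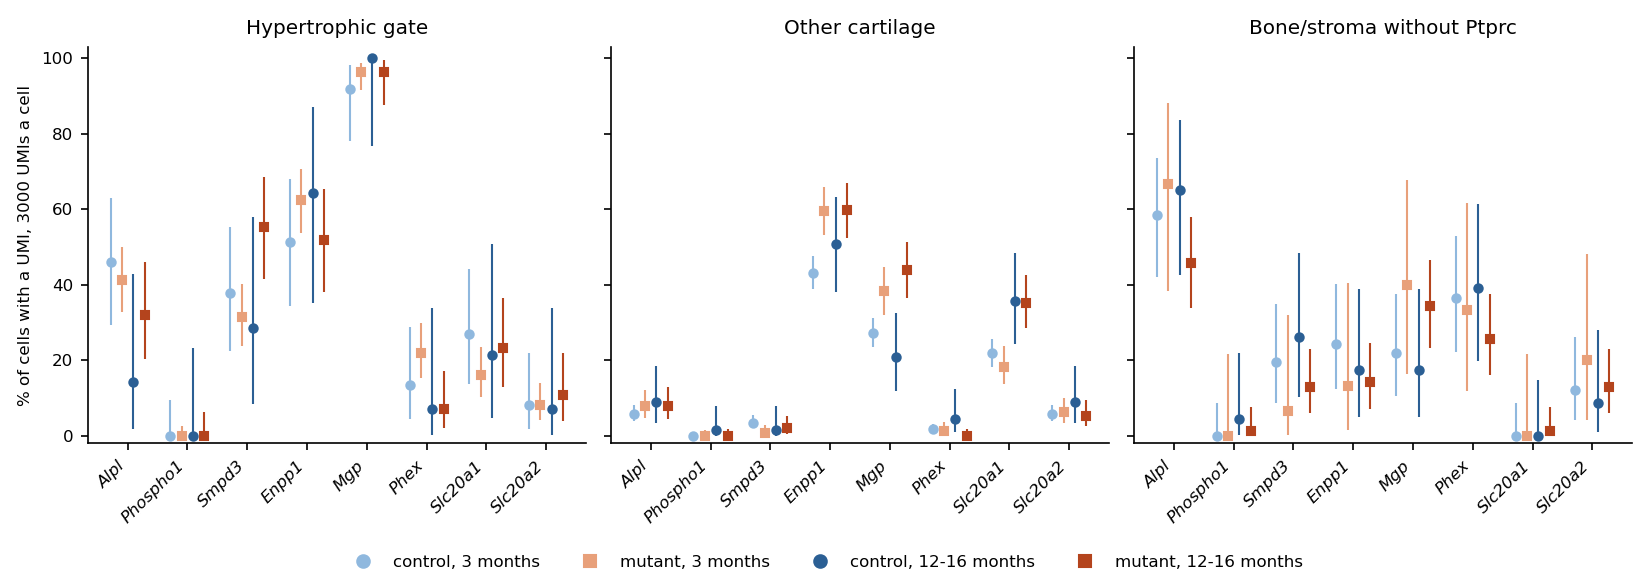
Percent of cells with at least 1 UMI of each gene after every cell was thinned to 3000 UMIs, in hypertrophic, other cartilage and bone/stroma cells without Ptprc, 1 point per library with its 95% Clopper-Pearson interval. Mgp was found in over 90% of hypertrophic cells in each library, Alpl in more bone/stroma and hypertrophic than other cartilage cells, and Slc20a1 in almost no bone/stroma cell.

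Smpd3 was low in other cartilage and high in hypertrophic cells of every library. It was at 596, 268, 157 and 663 CPM in hypertrophic cells and 10.2, 5.6, 4.39 and 6.93 CPM in other cartilage cells. The ratio was 58.6 (45.9 to 75.7), 47.8 (29.2 to 84), 35.7 (13.3 to 135) and 95.6 (54.4 to 186), and every hypertrophic value was above every other cartilage value. Smpd3 was found in 73.7%, 55.1%, 66.7% and 80.4% of hypertrophic cells and, after thinning to 3000 UMIs, in 37.8%, 31.6%, 28.6% and 55.4% of them, against 3.48%, 0.833%, 1.49% and 2.14% of other cartilage cells. In bone/stroma without Ptprc the levels were 176, 15.9, 709.9 and 231 CPM, with the value of the mutant library at 3 months resting on 3 UMIs. The bone/stroma levels spread more widely over libraries than those of Alpl.

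The level differed between kinds of bone/stroma cell. Cells with at least 20 UMIs of Bglap and Bglap2 together (the osteocalcin genes of mature osteoblasts; 13, 2, 11 and 9 cells) had Smpd3 at 341, 0, 1083 and 716 CPM. Cells below that limit with at least 20 UMIs of Cxcl12, the chemokine of marrow stroma (14, 9, 9 and 40 cells), had 20.6, 25.6, 5.66 and 32.5 CPM. Smpd3 was higher in the Bglap-high cells of the 3 libraries that held more than 2 of them, and 1 cell held 55.3% of the UMIs in the control library at 12 to 16 months.

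Phospho1, the vesicle phosphatase that uses the phosphocholine freed by Smpd3, was nearly absent, with 3, 1, 9 and 3 UMIs in all passing cells. Of these 16 UMIs, 10 were in Bglap-high bone/stroma cells of the older mice (8 in the control and 2 in the mutant library). Hypertrophic cells held 1, 1, 0 and 1 UMIs of Phospho1. In the hypertrophic gate 3 UMIs would be 3.39, 1, 7.58 and 2.65 CPM, and with so few UMIs no ratio is given for this gene.

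Phex, which marks osteoblasts on their way to osteocytes, was highest in bone/stroma cells and second in hypertrophic cells. Without Ptprc cells, bone/stroma had 458, 593, 568 and 426 CPM, hypertrophic cells 175, 163, 75.8 and 42.4 CPM and other cartilage 5.56, 4.55, 8.77 and 2.89 CPM. By summed UMIs the 3 gates stood in this order in each library, and the bone/stroma and hypertrophic ranges did not overlap. In the older control library a single cell held most of the hypertrophic Phex UMIs, as given below. The place of hypertrophic cells above other cartilage there, and the ratio of that library with its interval, depend on that cell. In the older mutant library, hypertrophic cells without a Col10a1 UMI were below other cartilage, with their level given below. The ratio of hypertrophic to other cartilage was 31.5 (22.2 to 45.6), 35.7 (20.7 to 67.5), 8.64 (3.87 to 21.8) and 14.7 (5.88 to 47.3). The ratio of bone/stroma without Ptprc to other cartilage was 82.4 (59.5 to 117), 130.2 (73.1 to 252), 64.7 (32.5 to 151) and 147 (62.6 to 456).

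Within bone/stroma, Phex was at 812, 2468, 816 and 1100.2 CPM in Bglap-high cells against 155, 162, 84.9 and 173 CPM in Cxcl12-high cells. By number of UMIs, bone/stroma with Ptprc cells kept held 64.5%, 18.3%, 90.5% and 86.9% of the Phex UMIs of each library. Hypertrophic cells held 27.9%, 79.4%, 7.28% and 11%, and so most of them in the mutant library at 3 months. In hypertrophic cells Phex came from few cells, 28.9%, 33.1%, 13.3% and 12.5% of them, and in the control library at 12 to 16 months 1 cell held 93.3% of its UMIs. The bone collagen gene Col1a1 was at 4.52, 0.334, 35.4 and 8.84 CPM in hypertrophic cells against 49652, 25888, 114243 and 32450.5 CPM in bone/stroma without Ptprc, and the osteocyte gene Dmp1 had 3, 0, 0 and 0 UMIs in hypertrophic cells. Phex is X-linked. Xist was at 767, 1326, 696 and 858 CPM and Y-linked genes together at 22.3, 0.686, 56.6 and 49.1 CPM in all passing cells. Gates differed as well. In the control library at 12 to 16 months Y-linked genes had 0 CPM in hypertrophic cells. They had 57.0 CPM in other cartilage and 93.3 CPM in the whole bone/stroma gate there. The part of these differences between libraries and gates in the Phex levels was not tested.

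Mgp was the most widely found of the 8 genes in hypertrophic cells. Its level there was 29516, 35987, 59594 and 48928 CPM, with at least 1 UMI in 97.4%, 99.3%, 100% and 98.2% of cells and a median of 355, 568, 1199 and 674 UMIs per cell. Other cartilage cells had 1543, 3929, 1667 and 4986 CPM and bone/stroma without Ptprc 455, 629.9, 241 and 944 CPM. By CPM the order hypertrophic, other cartilage, bone/stroma held in all 4 libraries, with no overlap between gates. Shares of cells did not separate the last pair. At 6000 UMIs Mgp was found in 32.4%, 54.5%, 22.7% and 43.9% of bone/stroma cells without Ptprc. Other cartilage had 35.1%, 51.8%, 27.3% and 56.7%, and the intervals overlap in each library. A single cell held most of the other cartilage UMIs of the control library at 12 to 16 months, as given below. The ratio of hypertrophic to other cartilage was 19.1, 9.16, 35.7 and 9.81, and that of bone/stroma without Ptprc to other cartilage was 0.295, 0.16, 0.144 and 0.189.

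Within bone/stroma, Mgp was split the opposite way from Smpd3 and Phex. It was at 929, 1008, 1098 and 1029 CPM in Cxcl12-high cells, and Bglap-high cells had 0, 0, 3 and 4 UMIs of it in all. With Mgp so high in hypertrophic cells, free RNA was a concern for other cells. After thinning to 3000 UMIs, Mgp was found in 17.1% and 12.5% of the Ptprc cells with no Sox9 in the mutant libraries, against 38.3% and 43.9% of their other cartilage cells.

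Enpp1 behaved unlike Alpl. It was found in most cartilage cells of both gates (83.6%, 86.3%, 79.7% and 83.2% of other cartilage and 92.1%, 97.8%, 93.3% and 94.6% of hypertrophic cells). Its level was 685, 639, 323 and 244 CPM in hypertrophic cells, 221, 314, 276 and 406 CPM in other cartilage and 89.5, 90.0, 73.5 and 119 CPM in bone/stroma without Ptprc. Hypertrophic cells were above other cartilage at 3 months and not at 12 to 16 months: the ratio was 3.1 (2.81 to 3.4), 2.03 (1.88 to 2.2), 1.17 (0.938 to 1.45) and 0.601 (0.521 to 0.692). A single cell held 35% of the hypertrophic Enpp1 UMIs in the control library at 3 months and 27.6% in the mutant library. Bone/stroma was lower than other cartilage in each library, by ratios of 0.404 (0.314 to 0.514), 0.286 (0.166 to 0.461), 0.266 (0.191 to 0.364) and 0.294 (0.237 to 0.36).

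The balance of the phosphatase and the pyrophosphate-making enzyme was read as Alpl UMIs per Enpp1 UMI. The ratio is compared between gates and not read as relative amounts of the 2 transcripts, since capture can differ between genes. It was 0.205, 0.214, 0.135 and 0.117 in other cartilage, 1.35, 1.34, 0.5 and 3.36 in hypertrophic cells and 5.11, 8.53, 5.09 and 5.38 in bone/stroma without Ptprc. In each library the 3 gates kept this order, and the 3 ranges did not overlap. In the control library at 12 to 16 months a single cell held most of the hypertrophic Alpl UMIs. The hypertrophic value of that library, its place above other cartilage and its interval depend on that cell. In hypertrophic cells the intervals were 1.21 to 1.5 and 1.26 to 1.42 at 3 months, which overlap, and 0.364 to 0.68 and 2.93 to 3.86 at 12 to 16 months, which do not. As summed UMIs, the parts of this gate at 3 months differed in opposite directions. With a Col10a1 UMI the ratio was 0.612 (0.519 to 0.721) in the control and 1.38 (1.23 to 1.55) in the mutant library. Without Col10a1 it was 2.7 (2.3 to 3.17) and 1.32 (1.23 to 1.42). The cell with most Enpp1 UMIs was among the Col10a1 cells in the control library and among the rest in the mutant library. These differences therefore depend on single cells, and no direction is read from them. Single cells held large parts of the Enpp1 UMIs at 3 months and of the older control Alpl UMIs, as given above.

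**Figure D3:**
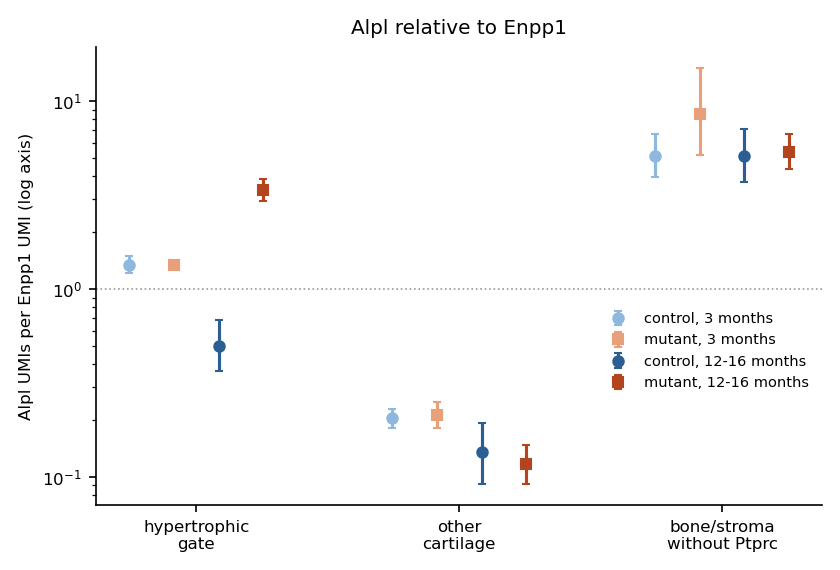
Alpl UMIs per Enpp1 UMI (log axis) in other cartilage, hypertrophic and bone/stroma cells without Ptprc, 1 point per library with its 95% interval for counting error. The ratio stays below 0.3 in other cartilage, lies between 0.5 and 3.36 in hypertrophic cells and is above 5 in bone/stroma. The lowest hypertrophic value rests mostly on the Alpl UMIs of a single cell.

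The phosphate transporters differed from each other across gates. Slc20a1 was at 110.3, 82.3, 199.5 and 211 CPM in other cartilage and 251, 76.6, 73.2 and 152 CPM in hypertrophic cells, with 8, 0, 1 and 9 UMIs in bone/stroma without Ptprc. Relative to other cartilage it was higher in hypertrophic cells of the control library at 3 months by a ratio of 2.27 (1.95 to 2.64) and lower in the control library at 12 to 16 months, at 0.367 (0.239 to 0.545). The second direction turned when cells were thinned before gating, to a log2 ratio of 0.067. For the first, Slc20a1 was found in 27% of hypertrophic and 21.9% of other cartilage cells at 3000 UMIs. At 6000 UMIs these shares were 34.3% and 38.2%, and the intervals overlap at both depths. In bone/stroma without Ptprc the ratio to other cartilage was 0.0927, at most 0.193, 0.00784 and 0.0478, where the bound sets 0 UMIs at a floor of 3. Slc20a2 was found at low levels in every gate, at 20.6, 29.8, 29.6 and 19.6 CPM in other cartilage, 17, 32.1, 15.2 and 29.2 CPM in hypertrophic cells and 32, 42.3, 10.9 and 53.9 CPM in bone/stroma without Ptprc. Its ranges overlapped between gates. Slc20a1 made up 84.3%, 73.4%, 87.1% and 91.5% of the UMIs of the pair in other cartilage, with the same limit on reading one transcript against another. In bone/stroma without Ptprc the pair had 8, 0, 1 and 9 UMIs of Slc20a1 and 25, 8, 7 and 48 UMIs of Slc20a2. The transporters were set against the same Ptprc cells. At 3000 UMIs the Ptprc cells with no Sox9 of the mutant libraries at 3 and at 12 to 16 months held Slc20a1 in 14.6% and 4.17% of cells, against 18.3% and 35.3% of other cartilage cells, and Slc20a2 in 9.76% and 8.33%, against 6.25% and 5.35%. The Slc20a2 shares of other cartilage were thus not above those of the Ptprc cells. The Slc20a1 share was above that of the Ptprc cells, with intervals that do not overlap, at 12 to 16 months and not at 3 months. Ptprc cells may make these transcripts themselves. For the transporters these shares therefore cannot separate free RNA from own expression, and no conclusion on free RNA is drawn.

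Counted over the gate, at least 2-fold higher in bone/stroma than in other cartilage were 3 of 7, 2 of 6, 3 of 7 and 4 of 7 genes (15.3%, 26.2%, 16.6% and 24.4% of all genes), and at least 2-fold lower were 3 genes in each library (21.8%, 18.6%, 18.7% and 12.3%). Without the Ptprc cells the counts were 3, 2, 3 and 4 higher (15.3%, 19.7%, 15.2% and 24.2%) and 3, 3, 4 and 3 lower (22%, 22%, 22% and 13.1%). When Ptprc cells were left out, Alpl and Phex were among the higher genes and Enpp1, Slc20a1 and Mgp among the lower ones in every library. Smpd3 was higher in the 3 libraries with enough UMIs to compare it, and Slc20a2 was lower in the control library and higher in the mutant library at 12 to 16 months.

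Inside the hypertrophic gate the genes were not spread evenly. Cells with a Col10a1 UMI numbered 9, 22, 0 and 12. In the 3 libraries that had them, Phex was at 460.3, 604 and 189 CPM in these cells and 71, 77.4 and 1.13 CPM in the rest. Enpp1 was at 1656, 1058 and 398 CPM against 330.2, 558 and 201 CPM. Both genes were higher in the Col10a1 cells of each library. Alpl was at 1014, 1457 and 1177 CPM against 892, 736 and 718 CPM, also higher in each. Smpd3 was not ordered by Col10a1, at 574, 296 and 530.0 CPM against 603, 262 and 700.3 CPM. Mgp was at 39142, 41202 and 59307 CPM against 26000.1, 34980 and 45998 CPM.

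**Figure D4:**
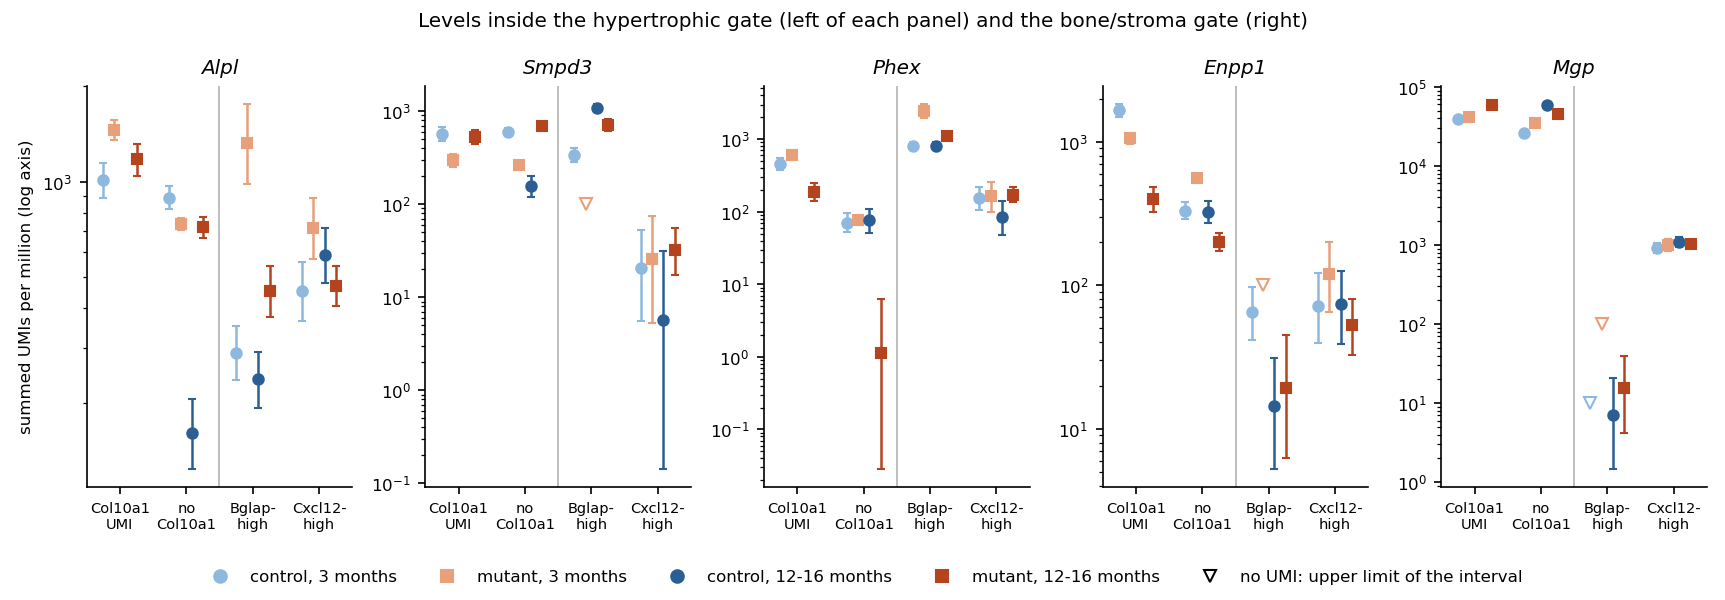
Levels of Alpl, Smpd3, Phex, Enpp1 and Mgp in CPM (log axis) in hypertrophic cells with and without a Col10a1 UMI and in Bglap-high and Cxcl12-high bone/stroma cells, 1 point per library with 95% Poisson intervals, and open triangles where no UMI was found. Phex and Enpp1 are higher with Col10a1, Phex and Smpd3 sit on the Bglap-high side of bone/stroma, and Mgp sits on the Cxcl12-high side.

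The enzymes also met in the same hypertrophic cells. Alpl was held by 22, 68, 4 and 31 of these cells and not by 16, 68, 11 and 25. The shares of the control library at 12 to 16 months thus rest on 4 Alpl cells. Smpd3 was found in 86.4%, 85.3%, 100% and 90.3% of hypertrophic cells that held Alpl and in 56.2%, 25%, 54.5% and 68% of those that did not. Phex was found in 50%, 58.8%, 50% and 16.1% of Alpl cells and 0%, 7.35%, 0% and 8% of the others. Both shares were higher among Alpl cells in each library. The Phex shares at 12 to 16 months rest on few cells. They were 2 of 4 Alpl cells against 0 of 11 others in the control library. In the mutant library they were 5 of 31 against 2 of 25. Alpl cells were also deeper (median 25309.5, 23492, 32216 and 21243 UMIs against 19783.5, 18510, 26780 and 18132), and the part of depth in these shares was not tested.

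Correlations were taken over 12 sums of cells (3 gates in 4 libraries), with Ptprc cells kept in bone/stroma. The bone/stroma sum of the mutant library at 3 months thus holds 23 Ptprc cells among its 39. Correlations without Ptprc cells were not taken. The log2(CPM + 1) levels of Alpl and Smpd3 had a Pearson correlation of 0.87, Alpl and Phex 0.81, Enpp1 and Mgp 0.84 and Enpp1 and Slc20a1 0.74. Alpl and Enpp1 had 0.0051 and Slc20a1 and Phex -0.71. The points share libraries and gates, so these values are descriptions. Among 11851 genes, the 3 most like Alpl by this measure were Wnt5a (0.970), Hpgd (0.970) and Mef2c (0.946). The nearest to Enpp1 were Enpp2 (0.965), Snai1 (0.963) and Fzd9 (0.957), and to Smpd3 Ttc37 (0.957), Socs2 (0.956) and Dlx5 (0.947). For Phex they were Exoc3l4 (0.972), Adgrf5 (0.958) and Naaladl2 (0.955), and for Mgp Pcdh9 (0.987), Prdm6 (0.972) and Mia (0.971). Slc20a1 was followed most closely by Hist1h1c (0.975), Srebf2 (0.966) and Sdcbp (0.957), and Slc20a2 by Ppil2 (0.919), Grk3 (0.903) and Creb1 (0.886).

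The next question was whether the genes differed between the mutant and control labels, which the study compared at both ages. In all passing cells at 3 months, 5 of 7 genes differed by at least 1.5-fold (4 higher and 1 lower under the mutant label), where 39.7% of all genes did. With TMM scaling, and also without the top cell of each gene, 3 of 7 did. At 12 to 16 months 2 of 7 did (1 higher, 1 lower), against 24.1%, and 1 of 7 with all barcodes kept. Shares of cell types and levels per cell cannot be told apart in such sums. Hypertrophic cells were 5.3%, 28.1%, 11.1% and 13.3% of passing cells and held 53.7%, 87.6%, 18% and 57.8% of Alpl UMIs and 68%, 89.9%, 91.9% and 84.5% of Mgp UMIs. Over all cells Mgp was 4.03 times and Alpl 2.47 times as high under the mutant label at 3 months, beside this larger share of hypertrophic cells.

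Within other cartilage, the gate with most cells, Mgp was the 1 gene past 1.5-fold higher at both ages. It went from 1543 CPM in the control to 3929 CPM in the mutant library at 3 months, a ratio of 2.55 (2.48 to 2.61), and from 1667 to 4986 CPM at 12 to 16 months, a ratio of 2.99 (2.83 to 3.16). The share of cells with Mgp after thinning to 3000 UMIs was 27.3%, 38.3%, 20.9% and 43.9%. On the log2 scale the difference was 1.35 at 3 months, and 1.28 without the 1 cell of each library with most Mgp, 1.37 with every cell weighted equally and 2.22 when cells were thinned before gating. At 12 to 16 months 1 control cell held 65% of the UMIs, and the log2 difference of 1.58 became 2.76, 1.59 and 0.35. The direction was the same each time, and the size was not. Mgp was also found in Ptprc cells with no Sox9 of the mutant libraries, as given above, and counts were not corrected for free RNA. The part of free RNA in these Mgp ratios was not tested.

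In all, 2 of 7 genes differed by at least 1.5-fold in other cartilage at 3 months, where 27.8% of all genes did, and 2 of 5 at 12 to 16 months, where 24% did, 1 in each direction both times. The older count went to 1 without doublets, with every cell weighted equally and without the top cell, and to 0 with cells thinned before gating. The median log2 ratio of the genes compared was 0.51 and 0.33, against 0.05 and -0.07 over all genes. Enpp1 was 1.42 (1.31 to 1.54) times as high under the mutant label at 3 months and 1.47 (1.27 to 1.7) times at 12 to 16 months, just under the 1.5-fold limit. Alpl was 1.49 (1.24 to 1.78) and 1.27 (0.842 to 1.96) times as high, the second with an interval that includes 1. Without the top cell of each library the log2 difference of Alpl at 3 months went from 0.57 to 0.24. The gene past the limit in the other direction was Smpd3 at 3 months, at a ratio of 0.551 (0.3 to 0.955), and Slc20a2 at 12 to 16 months, at 0.664 (0.389 to 1.14). Stress genes, which cell preparation can raise, summed to 18106, 14134, 15336 and 12121 CPM in other cartilage, lower under the mutant label at both ages, and their part in these ratios was not tested.

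**Figure D5:**
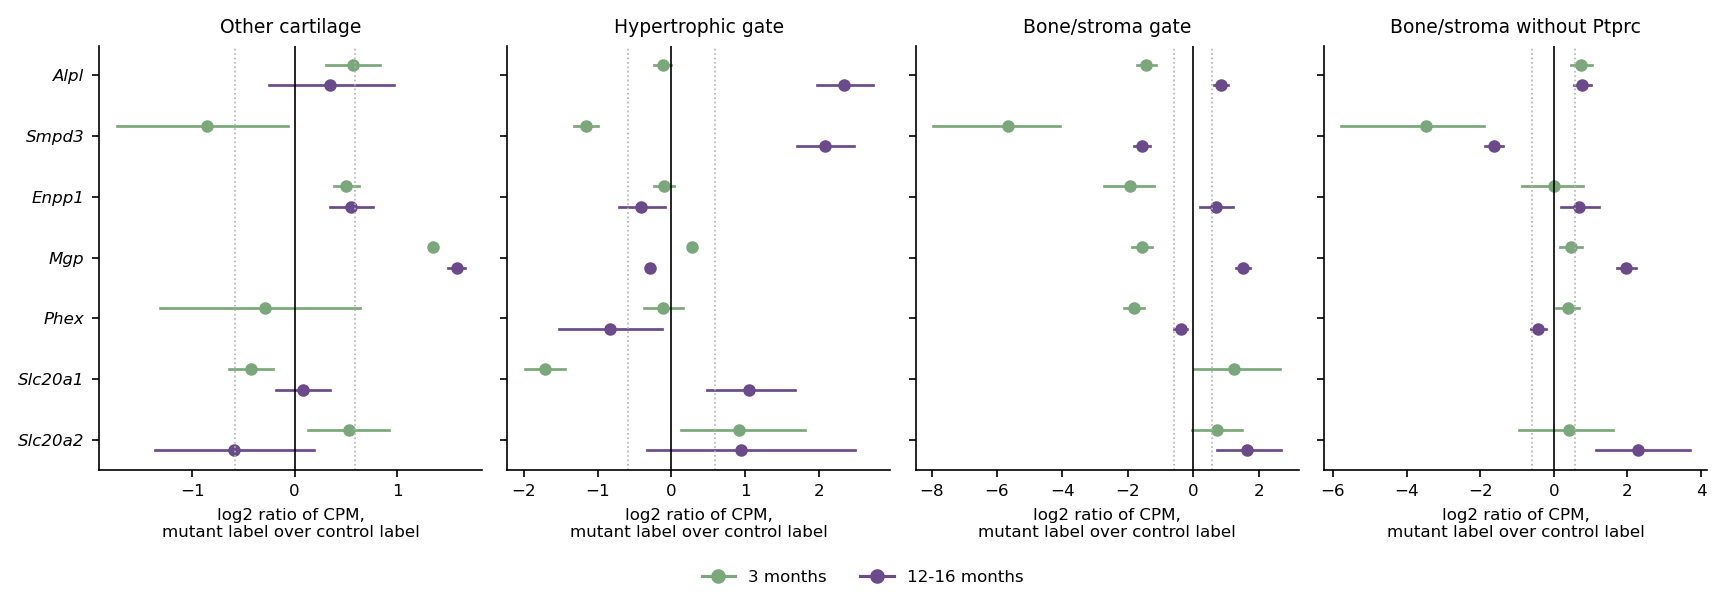
Log2 ratio of mutant to control levels for 7 genes (Phospho1 had too few UMIs) in 4 gates, 1 point per age with 95% intervals for counting error, and dotted lines at 1.5-fold. Mgp lies above the limit in other cartilage at both ages, Smpd3 and Slc20a1 change side between ages in hypertrophic cells, and bone/stroma at 3 months changes with the Ptprc cells.

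In hypertrophic cells 3 of 7 genes differed by at least 1.5-fold at 3 months (1 higher and 2 lower under the mutant label), where 38.6% of all genes did, and 5 of 7 at 12 to 16 months (4 higher, 1 lower), where 34.3% did. The older comparison set 15 control cells without Col10a1 against 56 mutant cells. Y-linked genes had 0 UMIs in those control cells and 17 in the mutant cells. The part of sex in the older ratios was not tested. At 3 months Alpl, Enpp1, Mgp and Phex differed by less than 1.5-fold, with ratios of 0.923, 0.933, 1.22 and 0.928. Smpd3 was at 0.449 (0.402 to 0.503) and Slc20a1 at 0.305 (0.253 to 0.369) of the control level. Smpd3 was not firm, since thinning before gating brought its log2 difference from -1.15 to -0.10. For Slc20a1 the share of cells at 6000 UMIs was 34.3% (19.1% to 52.2%) in the control and 21.5% (14.9% to 29.4%) in the mutant library, which overlap.

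At 12 to 16 months Alpl was 5.07 (3.93 to 6.64) times and Smpd3 4.23 (3.26 to 5.58) times as high in the mutant library. Slc20a1 was 2.08 times and Slc20a2 1.92 times as high. At 6000 UMIs, though, Slc20a1 was found in 42.9% of control and 37% of mutant cells. The Slc20a2 ratio rested on 6 control and 33 mutant UMIs, so its counting error is wide. Phex was at 0.56 (0.348 to 0.915) of the control level, and without the top cell, which held 93.3% of the control UMIs, it was higher under the mutant label by 2.49 on the log2 scale. The Alpl ratio also rested on few control cells: without the top one the log2 difference went from 2.34 to 3.88.

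Bone/stroma at 3 months gave opposite readings with and without Ptprc cells. With them, Alpl, Enpp1, Phex and Mgp were at 0.371, 0.26, 0.285 and 0.338 of the control level, and all 7 genes compared differed by at least 1.5-fold (2 higher, 5 lower), as 57.3% of all genes did. Without them, Alpl was 1.68 (1.37 to 2.04) times as high, Enpp1 1.01, Phex 1.3 and Mgp 1.38 times, and 2 of 6 genes differed by at least 1.5-fold (1 higher, 1 lower), where 52% of all genes did. At 12 to 16 months, without Ptprc cells, 5 of 6 genes did (4 higher, 1 lower), against 43.5% of all genes, and the counts with them were the same, against 40.4%. Alpl was 1.71 (1.47 to 2) times, Mgp 3.92 times, Slc20a2 4.92 times and Enpp1 1.62 times as high. The Slc20a2 ratio rested on few control UMIs, as given above. The mural markers Acta2, Rgs5 and Myh11 summed to 11.0 and 484 CPM in the whole bone/stroma gate at this age. Their part in these ratios is not given here. At 3 months the markers summed to 804 and 8.12 CPM. The Mgp log2 ratio there was 0.47 without Ptprc cells and 1.53 without cells with a blood, endothelial or mural marker. The direction of Enpp1 in the whole gate turned when cells were thinned before gating, to a log2 ratio of -0.24, and was near 0 with every cell weighted equally.

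Smpd3 was lower under the mutant label in bone/stroma without Ptprc at both ages, at 0.09 (0.0183 to 0.269) and 0.326 (0.275 to 0.385) of the control level. The first ratio rests on 3 mutant UMIs. In the second, 1 Bglap-high cell held most of the control UMIs, as given above, so its size depends on that cell. The mutant libraries held fewer Bglap-high bone/stroma cells (13 and 2 at 3 months, 11 and 9 at 12 to 16 months). These were 1.81% and 0.413%, and 8.15% and 2.14%, of passing cells. Cxcl12-high cells, where Mgp was high and Smpd3 low, numbered 9 and 40 at 12 to 16 months. Their shares of passing cells were 6.67% (3.09% to 12.3%) and 9.5% (6.87% to 12.7%), which overlap. Within Bglap-high cells at 12 to 16 months Smpd3 was at 1083 and 716 CPM, and Alpl at 239 and 454 CPM. In Cxcl12-high cells Mgp was at 1098 and 1029 CPM and Alpl at 589 and 471 CPM. In the remaining cells of the gate (7 and 34, any Ptprc cells included) Alpl was at 263 and 853 CPM and Mgp at 180.1 and 1379 CPM. 1 cell held 87.5% and 72.1% of these Mgp UMIs. Both genes were higher under the mutant label in the remaining cells, and neither was in Cxcl12-high cells.

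Age was compared within each label, in libraries made from different animals. In other cartilage Slc20a1 was higher at 12 to 16 months than at 3 months under both labels, by 1.81 (1.53 to 2.13) times in the control and 2.57 (2.17 to 3.04) times in the mutant libraries, and its share of cells after thinning to 3000 UMIs was 21.9%, 18.3%, 35.8% and 35.3%. This passed 1.5-fold, as did 29.8% and 28.9% of all genes in either direction. Enpp1 was 1.25 (1.09 to 1.43) and 1.29 (1.17 to 1.43) times as high with age in other cartilage, below that limit. In hypertrophic cells Enpp1 had the opposite direction, at 0.472 (0.387 to 0.572) and 0.382 (0.335 to 0.433) of the 3-month level. Single cells held large parts of its 3-month UMIs there under both labels, as given above. Thinned to 6000 UMIs, Enpp1 was found in 80% of control hypertrophic cells at 3 months and 85.7% at 12 to 16 months. The control share was thus not lower with age, while the mutant shares were 82.2% and 64.8%. Phex in hypertrophic cells was at 0.433 (0.282 to 0.643) and 0.261 (0.19 to 0.351). In this gate 37.7% and 34% of all genes passed 1.5-fold. In that gate 6 of 7 genes passed it in the control libraries (1 higher, 5 lower) and 4 of 7 in the mutant libraries (2 of them higher). Alpl was at 0.175 (0.133 to 0.226) with age in the control and 0.961 (0.89 to 1.04) in the mutant libraries, Slc20a1 at 0.292 (0.191 to 0.431) and 1.98 (1.62 to 2.43), and Smpd3 at 0.263 (0.199 to 0.343) and 2.48 (2.24 to 2.74). The share of control hypertrophic cells with Slc20a1 at 6000 UMIs was not lower with age, at 34.3% and 42.9%. The mutant shares were 21.5% and 37%. Mgp was higher with age under both labels, at 2.02 and 1.36, the second below 1.5-fold. The older control gate here is the 15 cells with no Col10a1 UMI. Smpd3 in bone/stroma without Ptprc was 4.02 (3.32 to 4.9) and 14.6 (4.92 to 71.2) times as high with age (33.9% and 39.4%). For the first, 1 cell held most of the older control UMIs, and the second came from 3 UMIs at 3 months.

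Beside the 8 genes, 32 other genes of pyrophosphate, phosphate control, matrix vesicles and mineral-binding matrix were read from a list chosen with earlier results of these data known. Of those with enough UMIs, 10 of 22, 7 of 22, 4 of 19 and 6 of 20 were at least 2-fold higher in hypertrophic than in other cartilage cells, and 3, 4, 6 and 1 were lower, beside the background of 11.3% to 16.1% of all genes higher and 11.2% to 17.8% lower. Ppa1, the cytosolic pyrophosphatase, was among the 3 highest in every library, at 4023, 2443, 1702 and 3643 CPM in hypertrophic cells, 77.2, 38.9, 63.6 and 61.8 CPM in other cartilage and 51.1, 5.29, 26.6 and 38.2 CPM in bone/stroma without Ptprc, a ratio of 52.1, 62.9, 26.8 and 58.9 between the cartilage gates. Fam20c, the kinase that phosphorylates secreted matrix proteins, was higher in each library too (9.34, 3.55, 4.42 and 3.82). Of the 7 vesicle and phosphocholine genes, Chka, the choline kinase that makes phosphocholine, was higher in each library (3.36, 2.63, 2.8 and 5.36) and Sgms2, a sphingomyelin synthase, was lower in each (0.303, 0.206, 0.109 and 0.268). Ank, the pyrophosphate exporter (also called Ankh), had ratios of 1.95, 0.861, 1.17 and 1.6, within 2-fold. Chka and Ank are named here after their values were seen.

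The genes of mineral-binding matrix that had the highest hypertrophic ratios were Mepe at 3 months in the control library, with 34 UMIs against 0 (at least 94.5), and the osteocalcin gene Bglap (86.2, 101, 1.34 and 54.1). Bglap had few UMIs in other cartilage of the mutant libraries, so the size of its ratios there is uncertain. Bglap and Bglap2 are near-identical neighbours whose tags may be assigned uncertainly. The lowest ratios beside Sgms2 were those of Gas6, a ligand of TAM receptors, in the control library at 3 months, at 0.201 (0.0731 to 0.444), the membrane-binding annexin Anxa2 in the mutant library at 3 months, at 0.36 (0.33 to 0.392), and Anxa6 in the mutant library at 12 to 16 months, at 0.597 (0.406 to 0.865). Spp1 (osteopontin), a secreted inhibitor of crystal growth, had no UMI in the 15 hypertrophic cells of the control library at 12 to 16 months, against 1838 CPM in its other cartilage (ratio at most 0.00412), and 8499, 1380.4 and 3199 CPM in the hypertrophic cells of the others.

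In bone/stroma without Ptprc, 11 of 24, 7 of 21, 10 of 23 and 11 of 24 of these genes were at least 2-fold higher than in other cartilage and 4, 6, 5 and 3 lower, beside 15.2% to 24.2% and 13.1% to 22% of all genes. With Ptprc cells kept the counts were 11, 5, 9 and 9 higher and 4, 8, 4 and 3 lower. Bglap and Bglap2 had the highest ratios in each library. The gene with the lowest was Nt5e, the CD73 ectonucleotidase that acts on AMP after Enpp1 has split ATP, in 3 libraries, and Ppa1, with 1 UMI in bone/stroma, in the mutant library at 3 months. Nt5e was at 156, 247, 259.8 and 220.1 CPM in other cartilage and 6.39, 37.1, 10.9 and 15.7 CPM in bone/stroma, a ratio of 0.041, 0.15, 0.0421 and 0.0714. Anxa2 had ratios of 0.231, 0.187, 0.23 and 0.258, and Ank, lower too in each library, 0.404, 0.22, 0.302 and 0.461. Of the pyrophosphate genes on the list, 2 of 5, 3 of 4, 3 of 4 and 2 of 5 were at least 2-fold lower in bone/stroma without Ptprc than in other cartilage and 1, 0, 0 and 1 higher, as Enpp1 was lower in all 4 libraries.

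Between labels in other cartilage, 9 of 21 of the listed genes differed by at least 1.5-fold at 3 months (5 higher, 4 lower) and 5 of 20 at 12 to 16 months (3 higher, 2 lower), beside the 27.8% and 24% of all genes. Chka, at 2.18 (1.95 to 2.43), and the phosphate exporter Xpr1, at 1.76 (1.44 to 2.16), had the highest ratios at 3 months. Bone sialoprotein, Ibsp, at 5.46 (3.75 to 8.23), and Spp1, at 2.7 (2.56 to 2.85), had the highest at 12 to 16 months. Neither of the last pair passed the limit at 3 months, where Ibsp was at 0.699 and Spp1 at 1.24. The lowest ratios were those of Bglap at both ages (0.1 and 0.0659), Bglap2 at 3 months (at most 0.109) and Gas6 at 12 to 16 months (0.403). Bglap reached at most 26.3 CPM in this gate, against 23090.1, 947, 31553 and 9033 CPM in bone/stroma without Ptprc of the same libraries. Under the mutant label Bglap had few UMIs in other cartilage and Bglap2 had none, so the size of their ratios is uncertain.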

How the data were processed

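The authors sequenced the libraries by the 10x 3′ method and made UMI count matrices with Cell Ranger 8.0.0 on mm10, per the labels. The deposited counts are whole numbers per gene and barcode. The study's later steps, an ambient RNA correction with SoupX and the removal of immune, smooth muscle and endothelial cells, were not repeated here. UMIs were summed per library and gate and divided by the sum of all genes (Python 3.11.15, numpy 2.4.6, scipy 1.17.1, pandas 2.3.3). Levels carry exact Poisson intervals, ratios conditional binomial intervals and shares Clopper-Pearson intervals. With 1 library per condition no test was run. Genes with under 20 UMIs over both sums were not compared, folds against 0 used a floor of 3 UMIs, and limits were 2-fold between gates and 1.5-fold between labels or ages. The summed-count routine was checked on simulated data. Doublets were called by Scrublet (scanpy 1.11.5, score above 0.25: 8, 4, 0 and 3 cells) and kept. The edgeR package (4.0.16, R 4.3.3) gave TMM factors as an alternative scale only. The members, gates and lists were chosen with earlier results of these data known. Of the other pathway genes, the text names the 2 highest and 2 lowest ratios of each comparison described, and for each member the 3 genes with the highest correlation. One name of the member list, Ibsp-none, is no gene symbol and matched nothing. The exporter Ankh is listed as Ank. Gene positions are from GENCODE for GRCm38, and promoter windows from RefSeq on GRCm38.p6.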

Additional observations from a re-analysis of the deposited data

Results flagged for a closer look

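5 differences between labels had opposite directions at the 2 ages, and the difference between ages was not tested. As log2 ratios of mutant to control, Slc20a1 in hypertrophic cells was -1.71 at 3 months and 1.05 at 12 to 16 months, and Smpd3 in hypertrophic cells was -1.15 and 2.08. In bone/stroma Alpl was -1.43 and 0.84, Enpp1 was -1.94 and 0.70, and Mgp was -1.57 and 1.52. The last 3 rest on cells with Ptprc: without them the 3-month values were 0.75 for Alpl, 0.0079 for Enpp1 and 0.47 for Mgp, so none of the 3 then had opposite directions. The older hypertrophic comparison used 15 control cells, none with a Col10a1 UMI. Shares of hypertrophic cells with Slc20a1 at 6000 UMIs did not change side. They were 34.3% in the control and 21.5% in the mutant library at 3 months, and 42.9% and 37% at 12 to 16 months.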

How the results depend on the processing

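Of 97 counts recomputed under alternatives, 87 stayed within 1.5 times the count reported, and of 767 ratios of single genes, 557 stayed inside their counting interval, 197 moved out of it, and 13 that were past the fold limit changed direction. No paired analysis was possible because there was 1 library per condition. Leaving out a replicate was not possible either, so the cell with most UMIs of each gene was left out instead. Members at least 2-fold higher in bone/stroma of the mutant library at 3 months went from 2 to 1 with TMM scaling, and those higher in hypertrophic cells of the control library at 12 to 16 months from 4 to 1 when cells were thinned to 3000 UMIs before gating (3 genes left to compare) and to 2 without the top cell. Members past 1.5-fold between labels in all cells went from 5 to 3 at 3 months with TMM scaling and without the top cell, and from 2 to 1 at 12 to 16 months with all barcodes. In other cartilage at 12 to 16 months they went from 2 to 1 without doublets, with equal weights and without the top cell, and to 0 with thinning (4 genes left).

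The log2 ratios that changed direction were mostly in bone/stroma at 3 months. Without cells with blood, endothelial or mural markers, Alpl was 0.87, Enpp1 0.0085, Phex 0.53 and Mgp 1.53. Without Ptprc cells, an alternative chosen after seeing the data, as was that of hypertrophic cells with Col10a1 only, they were 0.75, 0.0079, 0.37 and 0.47. Slc20a1 there was -1.50 with equal weights, and Mgp 4.01 with thinning. The others were Enpp1 in bone/stroma at 12 to 16 months (-0.24 with thinning), Slc20a1 in hypertrophic over other cartilage cells of the control library at 12 to 16 months (0.067 with thinning) and Phex between labels in hypertrophic cells at 12 to 16 months (2.49 without the top cell). Apart from the alternatives that leave out cells or genes by construction, the cause was not tested. TMM scaling shifted log2 ratios by -0.40 to 0.12, and no ratio past the fold limit changed direction with it. Depth limits Phospho1, the 15 older control hypertrophic cells and the 2 Bglap-high cells of the mutant library at 3 months.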
